A study of Homo sapiens with 25 samples.

Results

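Methylation of histone H3 at lysine 4 was compared between NB4 cells kept in the solvent DMSO and NB4 cells given MC_2580 together with retinoic acid (RA) at 0.01 µM, a treatment called the combination here. NB4 is an established human cell line from acute promyelocytic leukemia, and MC_2580 is an inhibitor of the demethylase LSD1 (KDM1A). The 6 samples were chosen by antibody (H3K4me1, H3K4me2 or H3K4me3) and by treatment (DMSO or combination), out of 25 samples in the series, of which 23 came with a peak list. All cells were treated for 24 h. The labels name no dose for MC_2580. Cells with MC_2580 alone, RA alone at 0.01 µM (low RA) or RA alone at 1 µM (high RA) are set beside the combination where this helps to place it. For the H3K4me3 library of the combination the sample title names RA at 1 µM and the treatment field 0.01 µM. It was placed by the treatment field, so each H3K4me3 statement holds for the library so labelled. Every antibody and treatment had 1 library, so no value has a replicate spread, and neither an SD nor a test between conditions can be given. Peaks are not replicates of a condition. The intervals below are 95% exact binomial intervals over peaks or regions and cover counting error only. Marker genes of NB4 were not looked up, because gene positions on hg18, the genome build of the lists, were not used here.

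H3K4 carries 1, 2 or 3 methyl groups. H3K4me1 lies over enhancers and along the flanks of promoters, H3K4me2 over both kinds of element, and H3K4me3 mainly at promoters. Methyl groups are added stepwise by methyltransferases of the KMT2 and SETD1 families. LSD1 removes them from H3K4me2 and H3K4me1 and does not act on H3K4me3. It is brought to chromatin by repressors such as GFI1, a contact that several LSD1 inhibitors disrupt. RA acts through nuclear receptors, and in promyelocytic leukemia it acts on the PML-RARA fusion protein, which leads the cells to differentiate.

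The combination lists were longer than the DMSO lists in all 3 marks. H3K4me1 had 57630 peaks over 203 Mb in DMSO and 72810 peaks over 211 Mb in the combination. H3K4me2 had 40598 peaks over 56.9 Mb and 45463 peaks over 61.4 Mb. H3K4me3 had 21688 peaks over 63.9 Mb and 26963 peaks over 84.3 Mb. H3K4me1 peaks were thus more numerous but narrower, with a median width of 2525 bases in DMSO and 2046 in the combination, whereas the median H3K4me3 peak measured 2437 and 2446 bases. Each peak has a score, a value that rises with the strength of the caller's evidence for it. Scores start at 50 and pile up at 3100, and peaks at or above this ceiling cannot be ranked among themselves. The share of peaks at the ceiling went from 1.94% to 4.21% in H3K4me1 and from 20.6% to 25.2% in H3K4me2. In H3K4me3 it went the other way, from 30.6% to 23.6%. Read depth is unknown from these lists, and the part that depth and enrichment have in list length was not tested.

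New peaks outnumbered vanished peaks in every mark. A combination peak that overlapped no DMSO peak of the same mark by at least 1 base was counted as gained, and a DMSO peak without a combination peak as lost. Of the H3K4me3 peaks of the combination, 7170 (26.6%) were gained, and 1365 (6.29%) of the DMSO peaks were lost. The log2 ratio of gained to lost was 2.39 (2.31 to 2.48). In H3K4me1 15957 peaks (21.9%) were gained and 4490 (7.79%) lost, a log2 ratio of 1.83 (1.78 to 1.88). H3K4me2 had the smallest imbalance, with 10544 peaks (23.2%) gained and 5848 (14.4%) lost, a log2 ratio of 0.85 (0.80 to 0.90). More peaks were gained than lost on 23 of 23 chromosomes in each mark. The log2 ratio ran from 1.42 on chromosome 22 to 2.37 on chromosome 20 in H3K4me1, from 0.20 on chromosome 4 to 1.62 on chromosome 19 in H3K4me2, and from 1.69 on chromosome 21 to 2.83 on chromosome 18 in H3K4me3. The size of the imbalance moves with the lengths of the lists. When both lists of a mark were reduced to the same number of peaks by score, the H3K4me1 ratio turned to -0.34, and those of H3K4me2 and H3K4me3 fell to 0.091 and 0.34. In lists of equal length, gained and lost peaks can differ in number only where peaks are split or joined. These ratios are small by construction, so they cannot decide whether a direction remains apart from list length.

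Most peaks that appeared were weak. The median score of gained peaks was 95.1 in H3K4me1, 84.1 in H3K4me2 and 77.8 in H3K4me3, while combination peaks shared with DMSO had medians of 458, 829 and 1208. Gained peaks were also narrower, with median widths of 1282, 538 and 1496 bases, against 2412, 1248 and 3073 bases in shared peaks. Lost peaks were weaker still, with median scores of 69.5, 65.0 and 61.6. Within a score band the gained share exceeded the lost share in each mark up to the band that ends at the ceiling. Of H3K4me1 peaks scoring 100 to 500, 22.6% (22.1 to 23.0) of the combination list were gained, and 3.42% (3.19 to 3.65) of the DMSO list were lost. The corresponding shares were 27.2% and 7.42% in H3K4me2 and 27.7% and 2.46% in H3K4me3.

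**Figure D1:**
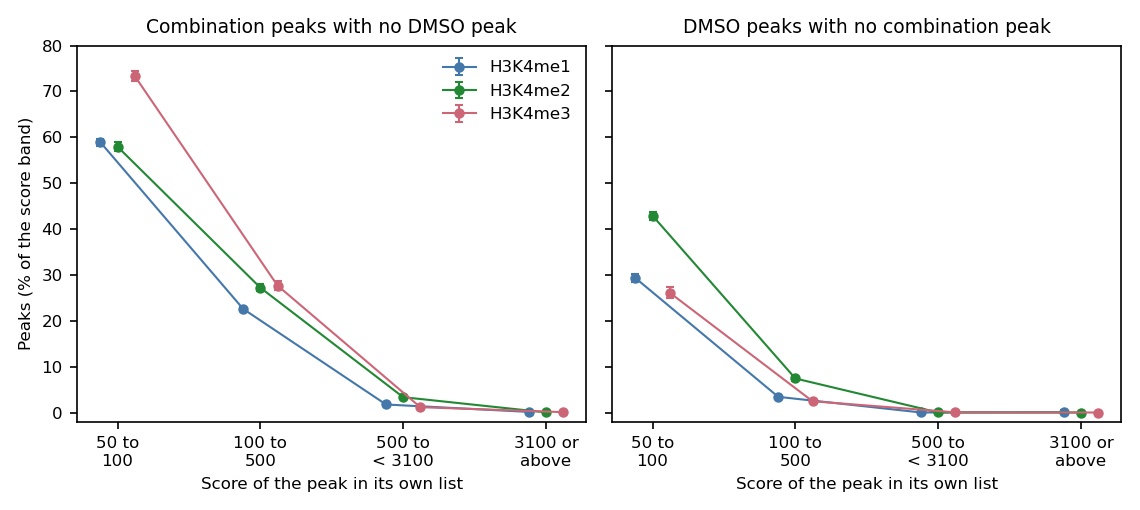
Share of peaks without a counterpart, in percent, by the score of the peak in its own list. The left panel shows combination peaks with no DMSO peak and the right panel DMSO peaks with no combination peak, with 95% exact binomial intervals. Shares fall with score in all 3 marks, and in the lowest band 73.4% of the H3K4me3 peaks of the combination had no DMSO peak, against 26.1% in the opposite direction.

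Strong peaks without a counterpart were few, and nearly all of them lay in the combination lists. At scores of 500 or above, 425 of 27179 H3K4me1 peaks (1.56%) had no DMSO peak, and 2 of 20101 DMSO peaks had no combination peak. In H3K4me2 the numbers were 299 of 20322 (1.47%) and 1 of 16810, and in H3K4me3 75 of 12385 (0.606%) and 2 of 11715. Against the same DMSO lists, strong H3K4me1 gains numbered 14 of 16170 (0.0866%) with MC_2580 alone, 37 of 11306 (0.327%) with low RA and 65 of 17018 (0.382%) with high RA. For H3K4me2 the numbers were 37 of 20987 (0.176%), 40 of 17389 (0.230%) and 239 of 20714 (1.15%). For H3K4me3 they were 62 of 14339 (0.432%), 152 of 14341 (1.06%) and 98 of 13169 (0.744%). How many peaks reach 500 differs between libraries of unknown depth, so these counts are set side by side without a ranking. Asked by rank in place of score, 97 of the 15000 highest-scoring H3K4me1 peaks of the combination had no peak among the 57630 of DMSO. In the opposite direction, with the combination list cut to 57630 peaks by score, the count was 2. The counts were 32 and 0 in H3K4me2, against lists of 40598 peaks. In H3K4me3 they were 317 and 64, against lists of 21688. The rank count was added after the data were seen.

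The marks were then joined. Merging the 6 lists gave 73504 regions, each with a state in DMSO and a state in the combination defined by which of the marks were called in it. The state was the same in 41072 regions (55.9%). A mark was added and none removed in 24316 regions (33.1%), a mark was removed and none added in 7662 (10.4%), and 454 regions did both. The log2 ratio of adding to removing regions was 1.67 (1.63 to 1.70). With lists of equal length it was -0.14, from 11989 adding and 13187 removing regions. Equal lengths also draw these counts toward each other, so this value cannot decide the direction. Joined in the same way with the same DMSO lists, MC_2580 alone had a log2 ratio of 0.81, low RA 0.10 and high RA 0.61.

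The common change was a single mark. The 17639 regions without any of the marks in DMSO all hold a mark in the combination by construction, because only called peaks were merged. Of them, 13594 (77.1%) had H3K4me1 alone, 1998 H3K4me3 alone and 1099 H3K4me2 alone. Of 27034 regions with H3K4me1 alone in DMSO, 18967 (70.2%) kept that state, 4033 lost it, and 2482 (9.18%) added H3K4me2. Another 814 added H3K4me3 without H3K4me2, and 644 added both. Of 6597 regions with H3K4me1 and H3K4me2, 1674 (25.4%) added H3K4me3 and 982 (14.9%) kept H3K4me1 alone. Of the states, all 3 marks together had the highest share unchanged, 15714 of 16288 (96.5%), and H3K4me2 with H3K4me3 the lowest, 154 of 503 (30.6%). Of those 503 regions, 229 (45.5%) added H3K4me1. The unchanged regions of these states had median widths of 5966 and 1586.5 bases, and the part of width in these shares was not tested. Of the regions with H3K4me3 alone 575 of 1684 (34.1%), and of those with H3K4me2 alone 1187 of 3176 (37.4%), had no mark in the combination. Of the 15504 regions that added H3K4me1, 92.5% changed in no other mark. The share was 72.2% of the 5202 regions that added H3K4me2 and 78.2% of the 5811 that added H3K4me3.

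**Figure D2:**
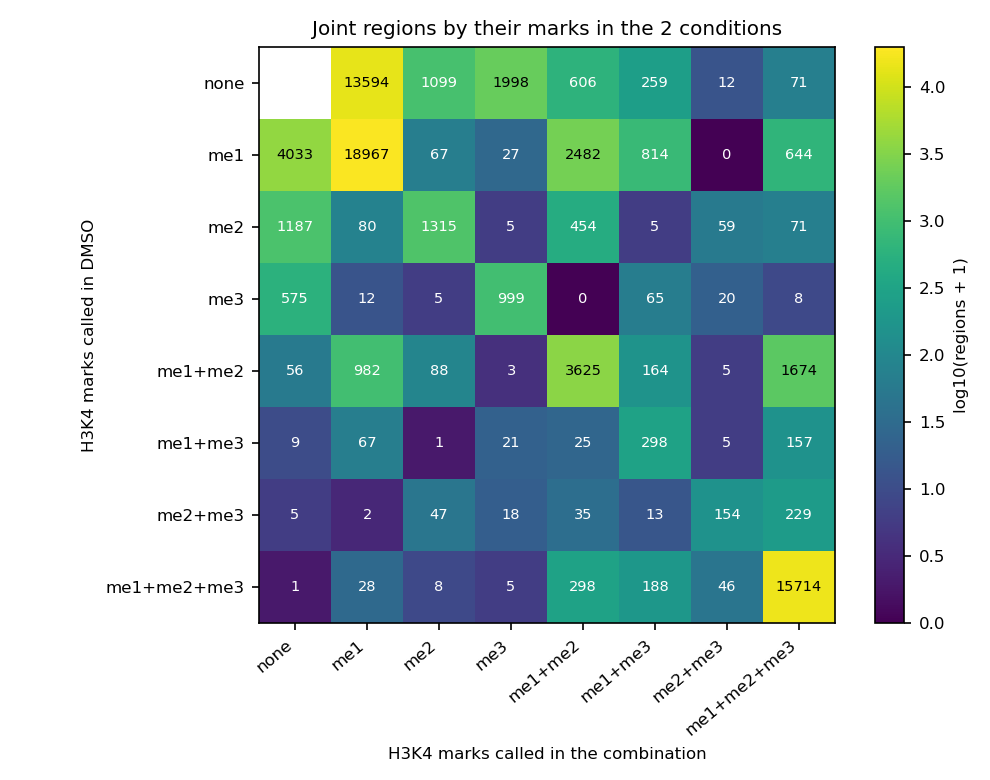
Number of joined regions by the H3K4 marks called in DMSO (rows) and in the combination (columns), coloured by the log10 of the number plus 1. The diagonal holds unchanged regions, and the largest cell off it is the 13594 regions that went from no mark to H3K4me1 alone.

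The 3 marks appeared in different surroundings. Gained H3K4me1 peaks lay mostly outside the other marks, as 8.45% (8.02 to 8.89) of them overlapped H3K4me2 or H3K4me3 of DMSO, against 53.6% of shared H3K4me1 peaks and 43.7% of all H3K4me1 peaks of the combination. Their median distance to the nearest H3K4me3 peak of DMSO was 23.7 kb, and 70.3% were more than 10 kb away. Most gained H3K4me2 peaks lay on standing H3K4me1, with 78.7% on an H3K4me1 peak of DMSO, against 92.2% of shared H3K4me2 peaks. On either other mark lay 79.7% of them (90.9% of all combination peaks). Of the gained H3K4me2 peaks, 29.8% lay within 1 kb of an H3K4me2 peak of DMSO, and the median distance was 3.81 kb. Of the gained H3K4me3 peaks, 66.3% (65.2 to 67.4) lay on H3K4me1 or H3K4me2 of DMSO, 64.1% on H3K4me1 and 35.3% on H3K4me2, while 86.7% of all combination H3K4me3 peaks lay on either mark. They stood apart from older H3K4me3, at a median distance of 17.4 kb, with 6.89% within 1 kb. Lost peaks were close to gained ones in some of these overlaps. Of lost H3K4me1 peaks, 7.77% overlapped H3K4me2 or H3K4me3 of DMSO, and 76.1% of lost H3K4me2 peaks lay on H3K4me1 of DMSO. Toward H3K4me3 they differed, as 35.0% of lost and 13.4% of gained H3K4me2 peaks overlapped H3K4me3 of DMSO. The median distance to it was 3.16 kb (lost) and 8.82 kb (gained) in H3K4me2, and 15.6 and 23.7 kb in H3K4me1. Of lost H3K4me3 peaks, 56.3% lay on H3K4me1 or H3K4me2 of DMSO.

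The surroundings were also compared at like strength, in peaks scoring 100 to 500. There 7.93% of gained and 40.8% of shared H3K4me1 peaks overlapped H3K4me2 of DMSO. For gained and shared H3K4me2 peaks the shares on H3K4me1 of DMSO were 79.8% and 90.3%. Gained H3K4me3 peaks lay on H3K4me1 of DMSO in 74.6% and shared ones in 84.2%, and on H3K4me2 of DMSO in 45.7% and 81.5%. H3K4me3 peaks that appeared in the combination thus lay on H3K4me2 less often than shared ones of like score.

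LSD1 was compared next, using its list of 12562 peaks from DMSO, which holds no peak scoring under 100 and so leaves out weak sites. Only 1.91% (1.70 to 2.13) of gained H3K4me1 peaks held an LSD1 peak, against 21.4% of shared peaks, 0.535% of lost peaks and 17.1% of all combination H3K4me1 peaks. In H3K4me2 the shares were 17.5% gained, 33.8% shared, 9.56% lost and 30.0% of all. In H3K4me3 they were 21.8% gained, 36.8% shared, 11.9% lost and 32.8% of all. Wider peaks meet more LSD1 peaks, so the count was repeated over 500 bases on either side of each peak's centre. For H3K4me1 the gained and shared shares were then 1.81% and 16.5%, for H3K4me2 18.9% and 33.4%, and for H3K4me3 21.2% and 32.6%. In peaks scoring 100 to 500, H3K4me1 still stood at 2.44% gained and 8.44% shared, and H3K4me2 at 19.8% and 30.2%. In H3K4me3 the shares at that score were 32.6% (30.6 to 34.6) and 32.0% (30.8 to 33.2), and these intervals overlap. In all 3 marks gained peaks held LSD1 more often than lost peaks.

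GFI1 peaks, from untreated cells, were spread in the same order. They lay in 7.22% of gained, 23.1% of shared and 3.39% of lost H3K4me1 peaks (19.6% of all combination peaks). In H3K4me2 the shares were 15.3%, 27.4% and 8.40% (24.6% of all), and in H3K4me3 21.3%, 35.0% and 11.3% (31.3% of all). In peaks scoring 100 to 500, GFI1 lay in 8.71% of gained and 11.9% of shared H3K4me1 peaks, and in 18.4% and 22.8% in H3K4me2. In H3K4me3 the gained share was the higher, 30.8% (28.8 to 32.8) against 28.3% (27.1 to 29.4), with overlapping intervals. H3K4me1 peaks scoring from 500 to below the ceiling held GFI1 in 31.1% (gained) and 32.9% (shared).

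Among regions with H3K4me1 alone in DMSO, those that added both other marks held LSD1 and GFI1 more often than those that stayed unchanged. LSD1 peaks of DMSO lay in 14.3% and GFI1 peaks in 18.6% of all joined regions. LSD1 was found in 3.83% (3.56 to 4.11) of the 18967 regions that stayed at H3K4me1 alone, in 14.8% of those that added H3K4me2, in 14.0% of those that added H3K4me3, and in 32.8% (29.1 to 36.5) of the 644 that added both. GFI1 lay in 11.5% of the first and 44.9% of the last of these groups. The 15714 regions with all 3 marks in both conditions held LSD1 in 43.2% and GFI1 in 42.7%, at a median width of 5966 bases. Such shares are thus not particular to regions that changed. Where H3K4me1 and H3K4me2 stood in DMSO, 23.0% of the 3625 unchanged regions and 48.3% of the 1674 that added H3K4me3 held LSD1. The 982 that dropped H3K4me2 held it in 11.2%.

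Region width moves with these groups, from a median of 2260 bases in regions that stayed at H3K4me1 alone to 4198.5 bases in those that added both marks. Among regions of 3 to 6 kb, LSD1 lay in 6.79% (6.06 to 7.58) of the former and 33.4% (28.4 to 38.8) of the latter. Among regions whose H3K4me1 peak in DMSO scored 500 or above, the shares were 13.6% and 40.8%. Both limits were added after the data were seen. Over the same DMSO lists, the share of LSD1 in regions going from H3K4me1 alone to all 3 marks was 41.8% (38.2 to 45.5) of 725 with MC_2580 alone. It was 13.5% (10.1 to 17.6) of 347 with low RA and 15.7% (11.3 to 21.0) of 236 with high RA. These shares rest on common DMSO and LSD1 lists, and no test between treatments was made.

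**Figure D3:**
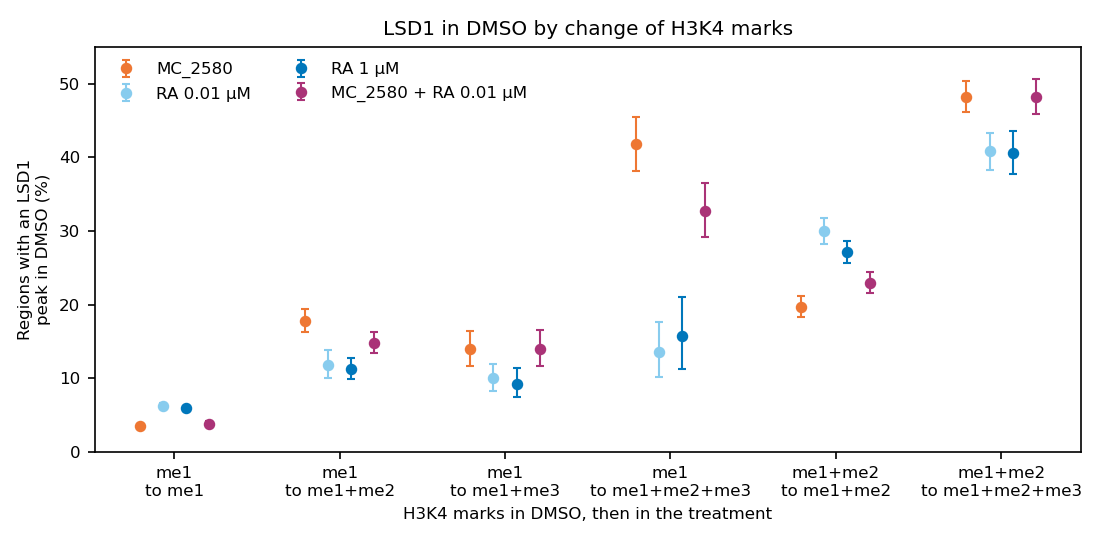
Share of joined regions with an LSD1 peak of DMSO, in percent, by the H3K4 marks called in DMSO and then in the treatment, for 4 treatments that share the DMSO lists. Bars are 95% exact binomial intervals; in regions going from H3K4me1 alone to all 3 marks the share was 41.8% with MC_2580, 32.8% with the combination, and 13.5% and 15.7% with low and high RA.

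H3K27 acetylation, a mark of active enhancers and promoters, was more frequent in the combination at the peaks that appeared. Of gained H3K4me1 peaks, 8.59% overlapped an H3K27ac peak of DMSO and 26.3% one of the combination. The shares went from 44.8% to 66.7% at gained H3K4me2 and from 36.6% to 49.6% at gained H3K4me3. Over all combination peaks they went from 44.2% to 52.7%, from 65.8% to 74.6% and from 64.5% to 71.2% in H3K4me1, H3K4me2 and H3K4me3. At lost peaks the shares went down, from 15.2% to 11.8%, from 45.5% to 41.8% and from 31.0% to 26.6%. The H3K27ac list of the combination has 41191 peaks and that of DMSO 32789. Cut to the length of the DMSO list, the combination list still reached 21.3%, 63.0% and 46.4% of the gained peaks, and 8.46%, 37.6% and 22.6% of the lost ones. Of the 421 gained H3K4me1 peaks scoring from 500 to below the ceiling, 315 (74.8%) had H3K27ac in the combination and 34 (8.08%) in DMSO. Shared H3K4me1 peaks of that score had it in 18947 of 23693 cases in the combination and in 16851 of 23693 (71.1%) in DMSO, so in the combination a larger share of shared than of gained peaks carried it. In the 644 regions that went from H3K4me1 alone to all 3 marks, H3K27ac was called in 42.5% in DMSO and 79.2% in the combination, where all joined regions went from 35.2% to 43.3%.

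Widths of matched peaks, those with a single partner in both lists, moved differently by mark. In H3K4me3 14054 of 18019 pairs were wider in the combination and 3951 narrower, and the median width was 2598 bases in DMSO and 3032 in the combination. The median log2 width ratio was 0.16 in H3K4me3, 0.037 over 24818 pairs of H3K4me2 and -0.081 over 42660 pairs of H3K4me1. For H3K4me3 the median log2 ratio against the same DMSO list was 0.33 with MC_2580, 0.29 with low RA and 0.19 with high RA. The DMSO list of H3K4me3 covered the least of the 5 lists of that mark, 63.9 Mb against 84.3 to 101 Mb. In H3K4me1, 5987 DMSO peaks were split into several combination peaks.

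Regions without any H3K4 mark in DMSO and with all 3 in the combination numbered 71 (0.0966% of joined regions), and 1 region did the reverse. There were 24 such regions with MC_2580, 30 with low RA and 30 with high RA. The 71 regions had a median width of 2290 bases, from 605 to 14745. H3K27ac was called in 2 of them in DMSO, 7 with MC_2580, 30 with low RA, 29 with high RA and 48 with the combination. As shares these are 2.82%, 9.86%, 42.3%, 40.8% and 67.6%, where 35.2%, 27.9%, 44.5%, 41.3% and 43.3% of all joined regions had H3K27ac, so both RA shares were near that of all regions. All 3 H3K4 marks were called in 11 of them (15.5%) with MC_2580, 19 (26.8%) with low RA and 17 (23.9%) with high RA, against 26.2%, 23.3% and 22.9% of all joined regions. LSD1 of DMSO lay in 5 (7.04%) and GFI1 in 17 (23.9%), against 14.3% and 18.6% of all joined regions. In regions going from no mark to H3K4me1 alone, of median width 1278 bases, the shares were 1.27% and 6.76%. The 644 regions (0.876% of joined regions) that built on H3K4me1 held LSD1 in 32.8%, and they were wider, as given above.

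The 10 of these 71 regions with the highest scores fell into several patterns across the single treatments. All 3 H3K4 marks were called in 4 of them with low RA, in 5 with high RA and in 2 with MC_2580. Over all joined regions the shares were 23.3%, 22.9% and 26.2%. The leading region, chr16:65023196-65029646, had no H3K4 or H3K27ac peak in DMSO or with MC_2580. Its H3K4me1 score was 1914 with low RA, 2136 with high RA and 3100 with the combination, and H3K27ac scored 3100 in all 3. Its H3K4me2 score was 328, 1187 and 805 in the same order, and its H3K4me3 score 347, 134 and 106. At chr10:125811509-125826253 H3K4me1 scored 473, 1346 and 3100 and H3K4me2 66.3, 418 and 526, again with nothing in DMSO or MC_2580. Neither region held LSD1 or GFI1.

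Other regions had H3K4 calls with MC_2580 and not with RA alone. At chr16:85524952-85527394 H3K4me1 scored 825 with MC_2580 and 1321 with the combination, H3K4me2 1340 and 1680, and H3K4me3 248 and 109, while RA alone gave no H3K4 peak at either dose. H3K27ac there had no peak with MC_2580 or high RA, and scored 59.6 with low RA and 85.3 with the combination. An LSD1 peak scoring 646 in DMSO and a GFI1 peak scoring 186 lay there. At chr18:22474804-22479729 H3K4me1 scored 817 and 2323 and H3K27ac 725 and 906 with MC_2580 and the combination, with no H3K4 or H3K27ac call under RA alone, and GFI1 scored 200.

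A further pattern was a call in the combination with little in any single treatment. At chr17:38138310-38144662 H3K4me1 scored 299 with MC_2580 and 2557 with the combination, and H3K4me2 (59.0), H3K4me3 (198) and H3K27ac (806) were called in the combination alone among the 5 conditions. At chr7:149894318-149898864 H3K4me1 scored 95.2 with MC_2580, 86.6 with low RA, 53.2 with high RA and 1635 with the combination, and H3K4me3 was called only in the combination, at 544. LSD1 scored 355 in DMSO and GFI1 180 at this region. Scores are not comparable in size between libraries of unknown depth, so these values are read as calls and as weak or strong within a list. The single region that went the other way, chr10:45395092-45397445, had scores of 56.1, 52.3 and 62.9 in DMSO, all near the floor of 50.

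**Figure D4:**
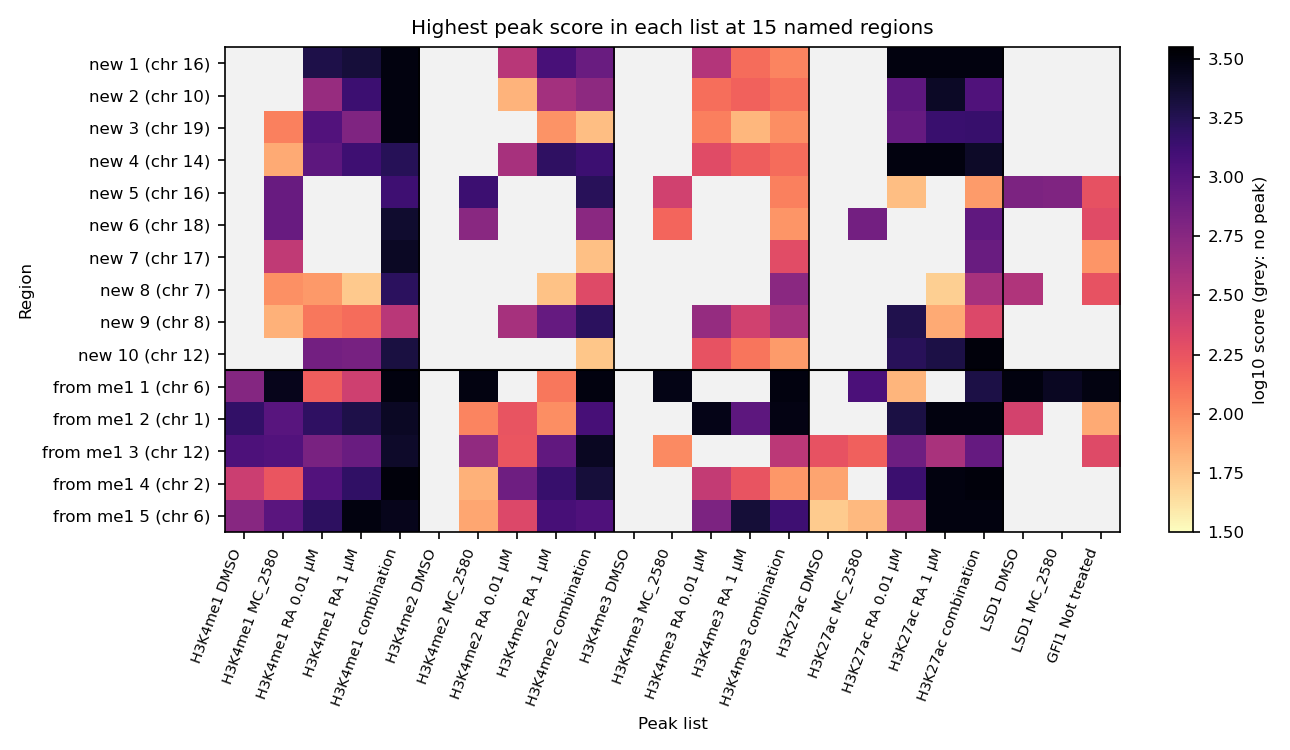
Highest peak score per list, on a log10 scale, at the 10 leading regions that went from no H3K4 mark to all 3 (new 1 to new 10) and the 5 leading regions that went from H3K4me1 alone to all 3 (from me1 1 to from me1 5); grey is no peak. In the DMSO columns the new regions are empty for the H3K4 marks and H3K27ac, and new 5 and new 6 are called for H3K4 marks with MC_2580 and the combination only.

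The leading region among those that built on H3K4me1 was chr6:37028156-37036332, which held the strongest LSD1 and GFI1 calls of the named regions. LSD1 scored 3100 in DMSO and GFI1 3028. H3K4me1 scored 593 in DMSO, 2786 with MC_2580, 156 with low RA, 254 with high RA and 3100 with the combination. H3K4me2 had no peak in DMSO or low RA, and scored 3009 with MC_2580, 119 with high RA and 3100 with the combination. H3K4me3 was called with MC_2580 (2914) and the combination (3100) only. H3K27ac had no peak in DMSO or high RA, and scored 1135 with MC_2580, 65.5 with low RA and 1938 with the combination. The H3K4me1 peak or peaks here spanned 3406 bases in DMSO and 8177 in the combination.

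**Figure D5:**
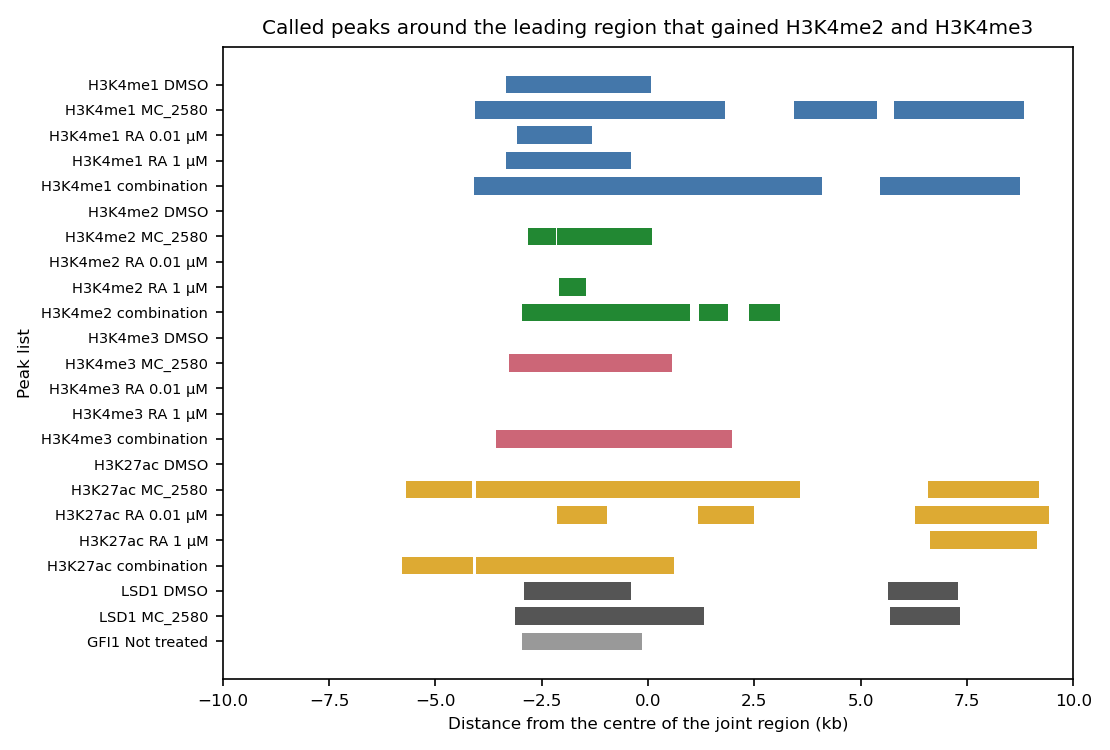
Called peaks in 23 lists within 10 kb of the centre of the leading region that went from H3K4me1 alone to all 3 marks; bars span the called peaks and the horizontal axis is the distance from the centre in kb. H3K4me2 and H3K4me3 are present with MC_2580 and the combination and absent in DMSO, and the central LSD1 and GFI1 peaks overlap them.

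Other regions of this class differed in the treatments that gave a call. At chr1:207882931-207903380 H3K4me3 had no peak in DMSO or MC_2580, and scored 2855 with low RA, 932 with high RA and 2991 with the combination. H3K4me2 there scored 107, 178, 96.9 and 1213 with MC_2580, low RA, high RA and the combination. At chr2:42151902-42156102 H3K4me1 scored 260 in DMSO and 3215 in the combination, and H3K4me2 755 with low RA, 1412 with high RA and 2121 with the combination, against 68.5 with MC_2580. At chr12:110018967-110025577 H3K4me3 was called with MC_2580 (101) and the combination (316) and with RA alone at neither dose, and GFI1 scored 207.

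Regions that went from all 3 marks to H3K4me1 alone numbered 28, and at the 5 leading ones the H3K4me2 and H3K4me3 peaks of DMSO were weak, none above a score of 131. At chr2:149714013-149722988 H3K4me2 scored 97.3 in DMSO and 283 with MC_2580, and H3K4me3 68.2 and 373, while H3K4me2 had no call with RA at either dose or with the combination. H3K27ac at this region scored 935 in DMSO and 114 with the combination. With MC_2580 alone all 3 marks were called at 5 of these 5 regions, with low RA at 1 and with high RA at 0. Over all joined regions the shares were 26.2%, 23.3% and 22.9%. These 5 were picked by score and do not stand for the 28.

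Width changed most in bases at wide H3K4me1 domains. The H3K4me1 peak at chr20:36248052-36267829 spanned 5109 bases in DMSO and 19778 in the combination, and the H3K27ac peaks in it 6928 and 17857 bases. The highest-scoring H3K4me1 peak there spanned 15988 bases with low RA, 17389 bases with high RA and 5592 bases with MC_2580, and each of these lists had 2 peaks in the region. The H3K4me3 peak at chr20:47748443-47765507 spanned 5999 bases in DMSO and 17065 in the combination. In the opposite direction, an H3K4me1 peak of 24131 bases at chr5:56148528-56172658 was matched to one of 1398 bases, where H3K4me2, H3K4me3 and H3K27ac scored 3100 in both conditions.

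Windows of 100 kb were ranked by their number of gained peaks, with no comparison to the density of all peaks. The window chr10:125700001-125800000 held 23 gained peaks (4 of H3K4me1, 11 of H3K4me2 and 8 of H3K4me3) and ends close to the second of the new regions described above. H3K4me3 was absent there in DMSO, and the H3K4me3 peaks touching the window summed to 26569 bases in the combination. H3K27ac peaks summed to 58804 bases in the combination and were not called in DMSO. low RA gave 26076 bases of H3K4me3 and MC_2580 1760. The window chr20:48400001-48500000 also held 23 (13, 6 and 4), and chr13:109900001-110000000 held 22 (5, 11 and 6). The window with the most lost peaks, chr16:2200001-2300000, held 12, of which 10 were H3K4me2 and none H3K4me3.

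Among gained peaks that overlapped an LSD1 peak of DMSO, 3 of H3K4me3 stood at the ceiling and could not be ranked by score. The widest of these 3, chr17:29597164-29609113, was absent in DMSO. Its score was 169 with MC_2580 and 3100 with low RA, high RA and the combination. H3K4me2 at this place scored 291 in DMSO and 2335 in the combination, and LSD1 scored 1062. Of gained H3K4me1 peaks with LSD1, the highest-scoring was chr2:113120463-113143024, called in every treatment and absent in DMSO. There H3K4me2 and H3K4me3 scored 3100 in all 5 conditions. The strongest lost H3K4me1 peak with LSD1, chr6:42998242-43012221, scored 3100 in DMSO and was missing with high RA and with the combination, while H3K4me2, H3K4me3 and H3K27ac scored 3100 or above in all 5 conditions.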

How the data were processed

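ChIP-seq was run with 1 library per antibody and treatment. Per the submitters' processing notes, the tools were MACS 1.4.1, Bowtie 1.0.1, FastQC (0.10.0, 0.11.5), CASAVA 1.8 and bcl2fastq 2, and the build hg18. For their roles and parameters nothing is given in the sources used here. The deposited lists hold position, name and score per peak, and the score, made by the authors' peak caller, served only to rank and filter within a list. Reads and depth were not used here.

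Overlap code ran in Python 3.11.15 (NumPy 2.4.6, SciPy 1.17.1), figures in Matplotlib 3.10.9. Joined regions are merged peaks of 6 lists. On simulated lists of 40000 peaks, 5000 of 5000 planted losses and 3000 of 3000 planted gains were recovered. Each kept peak was made to overlap its partner and no other, so this checks the overlap code only. Members, lists and rules were chosen with earlier results of these data known.

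The named-region rule took, by summed score capped at 3100, 10 regions going from no mark to all 3, 5 from H3K4me1 alone to all 3, 5 of the reverse, any going from all 3 to none, the largest width changes, 3 windows of 100 kb with most gains and 3 with most losses, and the strongest changed peaks with LSD1. Not all are printed. Gene lists, markers and sequences needing an hg18 annotation or genome were not used here. Alternatives were a score minimum of 100, 50% reciprocal overlap, joining within 1 kb, lists of equal length, a threshold on 1 side, autosomes only, 1 kb bins, 500 bases around centres, the MC_2580 LSD1 list and, added later, rank counts, equal H3K27ac lists and bands of width or score.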

Additional observations from a re-analysis of the deposited data

How the results depend on the processing

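No paired analysis was possible because each group had 1 library and the shared replicate number 1 pairs nothing. Gained-to-lost log2 ratios of H3K4me1, H3K4me2 and H3K4me3 were 2.40, 1.75 and 2.93 at a minimum score of 100, and 1.31, 0.48 and 1.29 with 50% reciprocal overlap. With the threshold on 1 side they were 3.12, 2.18 and 4.11, and with lists of equal length -0.34, 0.091 and 0.34. Joining peaks within 1 kb gave 1.91 (H3K4me1) and 0.90 (H3K4me2). Set against the other list at the length of the DMSO list, the 15000 highest-scoring peaks gave 5.60 (H3K4me1) and 2.31 (H3K4me3). They gave no ratio in H3K4me2, where 0 were lost. Equal length drops only the weak peaks of the longer list, by construction. It also draws gained and lost counts toward each other, so its ratios cannot decide a direction. For joined regions the log2 ratio was 2.42 at a minimum score of 100, 0.84 in 1 kb bins, 1.74 with regions joined, -0.14 with equal lengths and 1.52 without H3K4me3. The share of gained H3K4me3 on H3K4me1 or H3K4me2 was 76.0% at a minimum score of 100, 63.3% by centre and 74.8% with equal lengths. LSD1 shares in gained H3K4me1, H3K4me2 and H3K4me3 were 3.34%, 23.0% and 33.9% at a minimum score of 100, and 3.30%, 27.3% and 28.2% with the LSD1 list of MC_2580, which has 18822 peaks against 12562 in DMSO and may have been filtered differently before deposit. Around peak centres the H3K4me2 share was 18.9%. The width ratio was 0.028 (H3K4me2) and 0.15 (H3K4me3) at a minimum score of 100, and -0.061 (H3K4me1) and 0.030 (H3K4me2) with peaks joined. Where no construction is named, the cause was not tested. The lists give no depth, and peaks at the ceiling cannot show a change in strength.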
